A study of Mus musculus with 127 samples.

Results

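Long-term haematopoietic stem cells (LT in the labels) of old and young mice were compared at 0 h, the first time point of culture courses in which stem and progenitor cells met, or did not meet, bacterial ligands. The libraries were chosen by their labels: all LT libraries at 0 h, whichever treatment label they carry. Of the 127 libraries of the series, 11 met this rule, and 9 of them were usable, 3 from old and 6 from young mice. The 2 left out, both of old mouse 2, held 37 and 17 counts, and the smallest library kept was that of young mouse 4. Technical repeats were summed, which left 1 value per mouse for old mice 2 and 4 and young mice 1, 2, 3 and 4. The sample titles number the mice, but the column names of the counts do not. Columns were matched to mice by the times and repeats that share a date or prefix.

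The cells were sorted from bone marrow by surface markers, polyadenylated RNA was taken, and libraries were made with SMART-seq2, a full-length protocol for small inputs. Short-term stem cells (ST) and multipotent progenitors (MPP), the next steps of the same lineage tree, came from the same 6 mice. Age is given as old or young, without a number, and the labels name no strain, sex, genotype or sort gate. The growth protocol for all cells is an HSPC medium at 37C, and the ligands of the stimulated courses were LPS at 100 ng/ml and Pam3csk4 at 1 ug/ml. At 0 h the LT libraries of young mice 1 and 2 carry the stimulated label, and old mouse 4 and young mice 3 and 4 have the untreated one. Old mouse 2 has repeats with each label, and the column names do not say which is which. Whether cells with the stimulated label had met the ligands at 0 h is not stated in the labels.

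As background, long-term stem cells sit at the top of blood formation, divide rarely and keep the bone marrow supplied for life. With age they are known to increase in number, to give rise to myeloid cells and platelets more readily than to lymphocytes, and to carry more transcripts of adhesion and clotting genes such as Selp (P-selectin) and Vwf (von Willebrand factor). Whether such differences are visible in these 6 libraries was the question of the comparison.

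The LT sums of young mice 1 to 4 held 6152640, 11764630, 3658048 and 1899170 counts, and those of old mice 2 and 4 held 4456793 and 2362060. Genes with at least 1 count numbered 10101, 12319, 12155 and 10469 in the young and 13505 and 11597 in the old libraries, which overlap (2-sided exact permutation test of 2 old against 4 young mice, p = 0.4, where the smallest p this design allows is 0.133). The labels were checked with 9 genes of long-term stem cells: Kit, Ly6a, Slamf1, Procr, Fgd5, Mecom, Hlf, Hoxb5 and Esam. In old mouse 2 and young mouse 3 all 9 were higher in LT than in the MPP library of the same mouse, in old mouse 4 and young mouse 2 it was 6, in young mouse 4 it was 5 and in young mouse 1 it was 3. Flt3, Cd48 and Cd34, which mark progenitors beyond the long-term stage, were lower in LT than in MPP in every mouse. In young mouse 1 Slamf1, Procr and Hoxb5 were at 0 counts, in young mouse 4 Procr, Fgd5 and Hoxb5, and in young mouse 2 Hoxb5.

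The libraries also differed in transcripts of mature neutrophils. The granule genes Ngp, Ltf, Camp, Lcn2, S100a8 and S100a9 summed to 5.40%, 3.12%, 0.0240% and 6.23% of the counts of young mice 1 to 4, and 1.90% and 1.83% of those of old mice 2 and 4 (2-sided exact permutation test, p = 0.533). Young mouse 3 stands apart with almost no such RNA. The column names fall into 3 sets. The first has April dates (young mice 1 and 2 and old mouse 2), and the second a July date (young mouse 3 alone). The third has the letters ztc (young mouse 4 and old mouse 4). For some lists and genes, differences within the April set and within the ztc set are therefore printed beside the pooled ones. Each mouse of the April set has a date of its own, so age and date cannot be told apart there. The July set holds no old mouse and gives no such value.

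**Figure D1:**
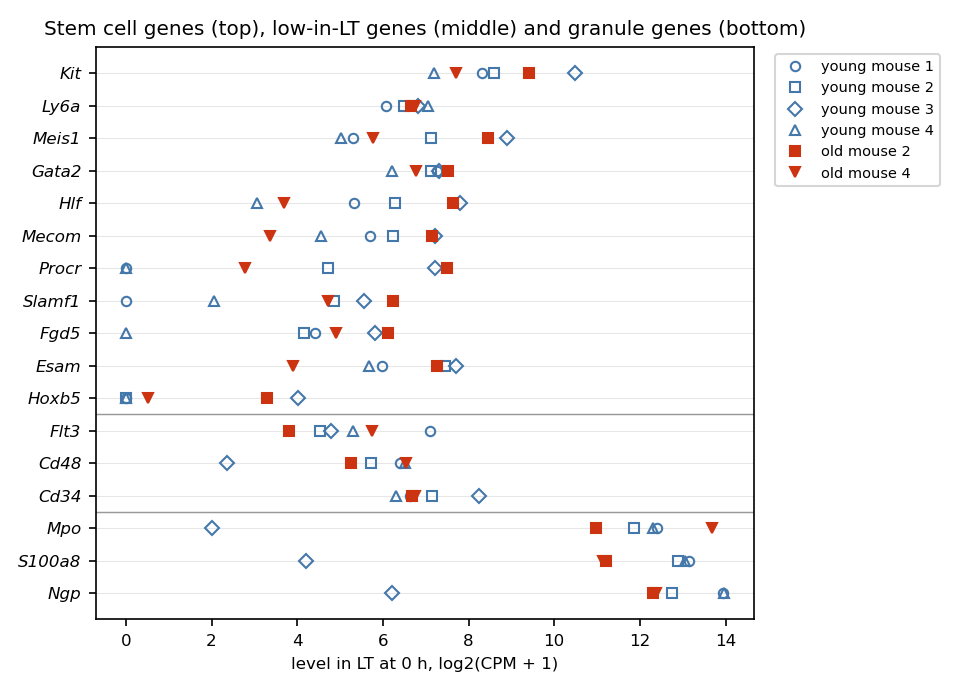
Levels in the 6 LT libraries at 0 h of 11 stem cell genes, 3 genes low in LT and 3 granule genes, as log2(CPM + 1), where CPM is counts scaled to a common library total. Open blue symbols are young mice and filled red ones old mice. Old mouse 2 and young mouse 3 sit together at the right for most stem cell genes, young mouse 4 and old mouse 4 at the left, and young mouse 3 is far below the others for the granule genes.

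No gene passed in the comparison of age. With edgeR's quasi-likelihood test on the 18 libraries of LT, ST and MPP at 0 h, 0 of 12983 genes tested had an adjusted p under 0.05 between old and young LT, a share of 0%. An unadjusted p under 0.05 was found for 442 genes, 339 higher and 103 lower in old LT. This is a smaller share than that threshold allows with no difference. The smallest adjusted p was 0.803, and the median log2 difference over all genes was 0.006. In a fit to the LT libraries alone, 101 of 11833 genes had an unadjusted p under 0.05. On the 18 libraries and 12983 genes, DESeq2 called 19 genes, 6 higher and 13 lower. There, limma voom with mouse as a random effect called 4, all higher (Rorb, Sfrp1, Derl3 and Ripk4), and limma voom with sample quality weights called 0. What follows therefore describes levels mouse by mouse, and a gene is called separated where both old libraries lie above, or below, all 4 young ones. Most separated genes named below, and also Derl3, Sel1l, Pdia4, Sult1a1, Rac1, Dynlt1b, Wdfy1 and Stab2, were picked after their values were seen. Of all genes tested 6.41% were separated with old higher and 2.15% with old lower. There are 15 ways to assign 2 old and 4 young mice. With no difference between the ages, up to about 1 in 15 genes would on average be separated in each direction. Neither share is above that.

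Genes known to be higher in aged long-term stem cells stood mostly higher in the old libraries, but old mouse 2 carried most of the difference. The list has 43 genes, of which 40 passed the filter on low counts. Its members were chosen with earlier results of these data known, so its values are not independent support. Of the 40, 4 had 0 counts in all young LT, so for them old could not be lower. The edgeR difference, old minus young, was positive for 36 of the 40, with a median of 1.44 on the log2 scale, against 0.006 over all genes. No member passed the edgeR test, while limma voom with mouse as a random effect called Rorb. Old and young were separated for 9 of the 40 (22.5%), all with old higher, beside the 6.41% of all genes. Without old mouse 2 the median was -0.016, beside -0.16 over all genes, and without old mouse 4 it was 2.26, beside -0.028.

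Set against each young library in turn, old mouse 2 had the higher level for 40, 38, 39 and 41 of the 43 genes, with median differences of 3.16, 1.95, 1.39 and 3.44 in log2(CPM + 1) against young mice 1, 2, 3 and 4. Old mouse 4 was higher for 27, 17, 19 and 28 of them, with medians of 0.78, -0.0046, -0.095 and 1.36. Old mouse 4 thus lay above young mice 1 and 4 and level with young mice 2 and 3 over this list. Stem cell transcription factors, which are not known as ageing genes, gave 1.48, 0.74, -0.16 and 1.78 for old mouse 2 and -0.16, -0.63, -1.39 and 0.013 for old mouse 4. In each of the 8 pairs the aged genes gave the larger median. Counts of at least 1 were present for 24, 32, 33 and 23 of the 43 aged genes in young mice 1 to 4 and for all 43 and 35 in old mice 2 and 4. The number of genes detected over the whole transcriptome moves with this, being largest in old mouse 2, and its part in the result was not tested. In sorted cells read in bulk, more cells that express a gene and more RNA of it per cell cannot be told apart.

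Within the name sets the median of the 40 genes was 2.30 in the April set (old mouse 2 against the mean of young mice 1 and 2) and 1.48 in the ztc set (old mouse 4 against young mouse 4), both in log2(CPM + 1). In both sets 26 of the 40 (65.0%) were higher and 2 lower, beside 29.3% and 19.3% of all genes. Each set holds 1 old mouse, so these values have no test.

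**Figure D2:**
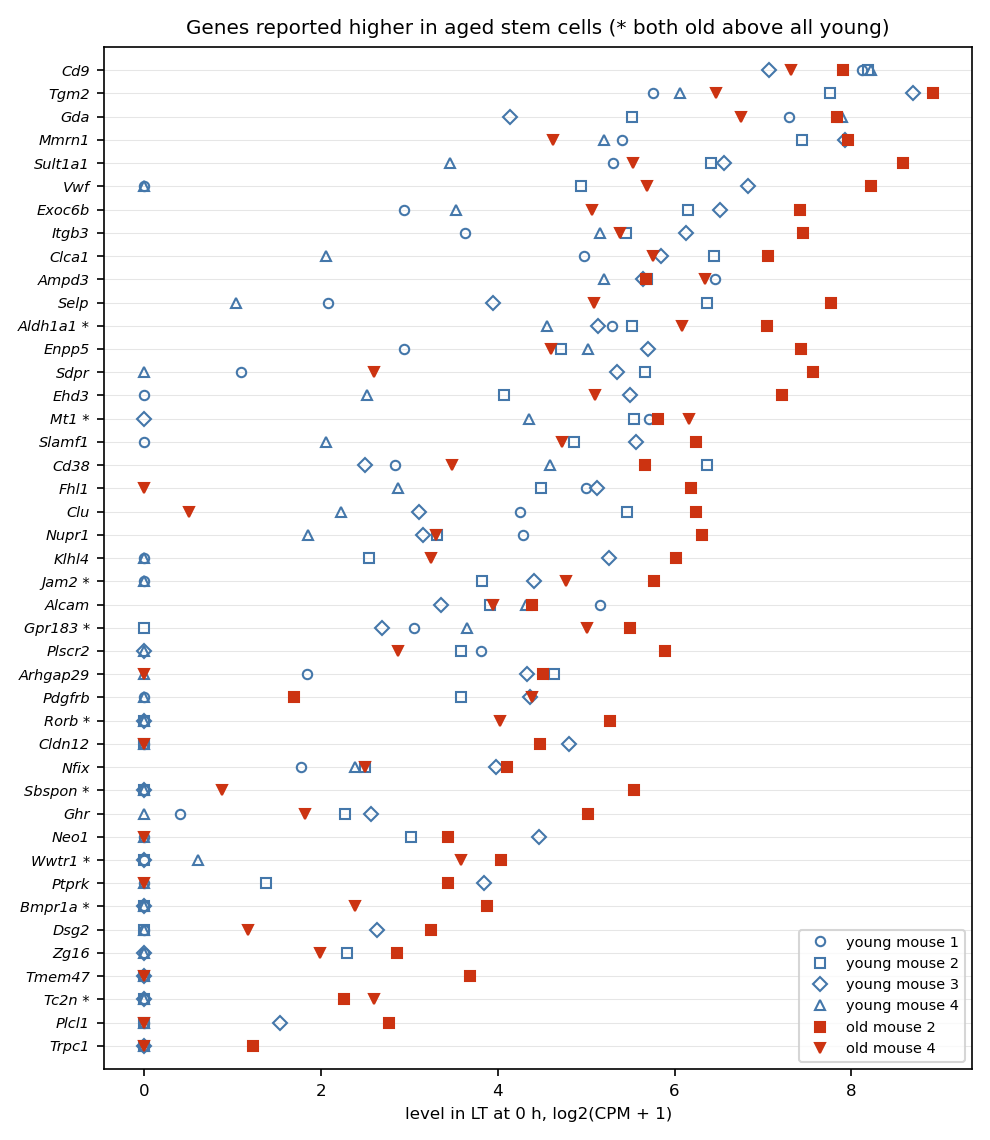
Levels in LT at 0 h of the 43 genes known to be higher in aged stem cells, as log2(CPM + 1), in order of their mean; open blue symbols are the 4 young mice, filled red ones old mice 2 and 4, and an asterisk marks both old libraries above all young. Old mouse 2 lies above all young mice for 33 genes, old mouse 4 for 10, and old mouse 4 below all young for 3.

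Among the adhesion and clotting genes of this list, Selp, the endothelial and platelet selectin, was at 3.25, 81.7, 14.5 and 1.05 CPM in young mice 1 to 4 and at 217 and 33.0 CPM in old mice 2 and 4. The group means were 25.1 ± 38.2 CPM (SD, n = 4) and 125 ± 130 CPM (SD, n = 2), and the difference of 2.28 ± 1.28 (log2 ± SE) did not pass (adjusted p = 1.00). Old mouse 4 lay below young mouse 2, so the groups overlap. Vwf, which carries clotting factor VIII and tethers platelets, was at 0, 29.8, 113 and 0 CPM in the young and 297 and 50.4 CPM in the old (2.26 ± 1.75). Old mouse 4 again fell inside the young range. Slamf1 (CD150), a sorting marker of long-term cells that increases with age, was at 0, 28.1, 46.2 and 3.16 CPM against 74.5 and 25.4 CPM (1.35 ± 2.15). Itgb3, the beta subunit of the platelet fibrinogen receptor, was at 11.4, 42.7, 68.9 and 34.8 CPM against 174 and 40.6 CPM (1.41 ± 1.01). For all 4 genes old mouse 2 was above every young mouse and old mouse 4 was not. Jam2, a junctional adhesion molecule, was separated: 0, 13.2, 20.2 and 0 CPM in the young and 53.6 and 26.2 CPM in the old (2.24 ± 1.88).

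Aldh1a1, a retinaldehyde dehydrogenase long used as an activity marker of stem cells, was separated too. It stood at 38.2, 44.7, 34.2 and 22.6 CPM in young mice 1 to 4 and at 131 and 66.9 CPM in old mice 2 and 4. The means were 34.9 ± 9.27 CPM (SD, n = 4) and 98.9 ± 45.2 CPM (SD, n = 2), a difference of 1.48 ± 0.88 that did not pass (adjusted p = 1.00). It was 1.63 within the April set and 1.52 within the ztc set. Aldh1a1 is also the only member of the list that was separated in LT, ST and MPP alike, a pattern shared with 15 other genes among all tested. In ST it was at 24.6, 11.8, 1.46 and 31.1 CPM in the young and 88.3 and 43.8 CPM in the old, and in MPP at 13.3, 9.61, 0.995 and 13.8 CPM against 22.2 and 60.2 CPM.

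The other separated members that were present in young cells are Gpr183, a receptor for oxysterols that guides lymphocyte movement, and Mt1, a metal-binding metallothionein. Gpr183 was at 7.31, 0, 5.47 and 11.6 CPM in the young and 44.0 and 31.3 CPM in the old (2.59 ± 1.53). Mt1 was at 51.5, 45.6, 0 and 19.5 CPM in the young and 55.4 and 70.7 CPM in the old (1.09 ± 1.14). For Mt1 the nearest mice, young mouse 1 and old mouse 2, differ by less than the spread within the young group.

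The last 5 separated members were at 0, or nearly so, in young LT. Rorb, an orphan nuclear receptor, had 0 counts in all 4 young libraries and stood at 37.5 and 15.2 CPM in old mice 2 and 4. Against the limit that 3 counts over the summed young libraries allow (0.128 CPM), the old mean of 26.4 ± 15.7 CPM (SD, n = 2) is at least 206-fold higher. Bmpr1a, a type I receptor for bone morphogenetic proteins, was at 0 in the young and at 13.7 and 4.23 CPM in the old, at least 70.1-fold higher. Tc2n was at 0 in the young and at 3.81 and 5.08 CPM in the old, at least 34.8-fold higher. Sbspon was at 0 in the young and at 45.5 CPM in old mouse 2, while old mouse 4 held 2 counts (0.847 CPM). Wwtr1 (TAZ), a coactivator controlled by the Hippo pathway, had 1 count in young mouse 4, none in the other young libraries, and 15.5 and 11.0 CPM in the old. Their unadjusted edgeR p lay between 0.0024 for Bmpr1a and 0.022 for Wwtr1. Of these 5, limma voom with mouse as a random effect called Rorb alone (adjusted p = 0.027), and DESeq2 called none. Floors cover counting error only, since reads without molecular identifiers are not independent molecules, and repeats of 1 mouse differed widely (Pearson's r of log2(CPM + 1) across genes 0.383, 0.675 and 0.873 in young mice 1 and 2 and old mouse 2).

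Not every member followed. Nupr1, a stress-induced nuclear protein, and Sult1a1, a sulfotransferase, had differences of 2.17 ± 1.24 and 1.90 ± 1.28, but old mouse 4 (8.89 and 45.3 CPM) lay inside the young ranges of 2.63 to 18.5 and 10.0 to 93.5 CPM, and without old mouse 2 both differences turned to -0.081 and -0.31. Tgm2, a transglutaminase, was at 53.1, 215, 415 and 65.8 CPM in the young and 482 and 87.6 CPM in the old (0.58 ± 1.16, and -1.09 without old mouse 2). Cd9, a tetraspanin, went the other way at 277, 290, 133 and 297 CPM in the young and 239 and 158 CPM in the old (-0.36 ± 0.65).

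The other populations of these mice gave lower values for the same list. Its median was 0.15 in ST and 0.83 in MPP, and 5 and 7 of the 40 genes were separated with old higher, beside 5.5% and 5% of all genes tested. The test of the difference itself found no gene whose age difference in LT departed from that in ST or in MPP (edgeR, 0 of 12983 genes in each). This fit took the cell types of 1 mouse as independent. At an unadjusted p under 0.05 there were 493 and 171 genes in these tests, a smaller share than that threshold allows with no difference. DESeq2 called 27 and 3 genes there, and limma voom called 0 with quality weights and 0 with mouse as a random effect. Nothing in the list can thus be called particular to LT.

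**Figure D3:**
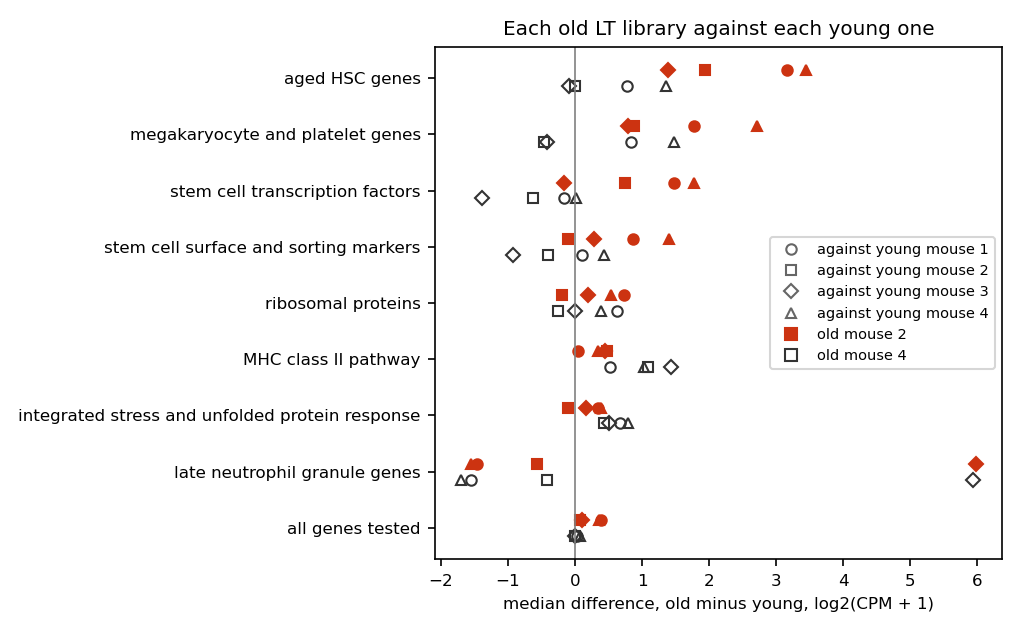
Median difference in log2(CPM + 1) of 8 gene lists and of all genes tested, for each of the 8 pairs of an old and a young LT library; filled red symbols are old mouse 2, open black ones old mouse 4, and the shape gives the young mouse. The aged genes lie between 1.39 and 3.44 for old mouse 2 and between -0.095 and 1.36 for old mouse 4, and late neutrophil granule genes are near 6 against young mouse 3 and below 0 against the other young mice.

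Platelet and megakaryocyte genes, which long-term cells with a platelet bias also carry, are a list that shares 6 members with the aged genes. Of 28 tested, 22 differences were positive (78.6%, beside 50.5% of all genes), with a median of 0.67, 3 were separated with old higher (10.7%, beside 6.41%) and none passed. Old mouse 4 lay below young mice 2 and 3 over the list, with medians of -0.47 and -0.42 in log2(CPM + 1) and 12 of 29 genes higher in each pair. Against young mice 1 and 4 it lay above, with medians of 0.83 and 1.47 and 18 and 23 genes higher. Old mouse 2 lay above all 4 young mice by 0.79 to 2.71. The median was 1.12 within the April set and 1.57 within the ztc set. In both sets 19 of the 28 were higher (67.9%, beside 29.3% of all genes) and 2 lower (7.14%, beside 19.3%), with no test. The summed level was 1327, 1875, 2361 and 1122 CPM in the young and 3162 and 1359 CPM in the old, so old mouse 4 was inside the young range. Over the 22 tested genes outside the aged list the median was 0.59. Tubb1, the platelet form of beta tubulin, was at 7.22 CPM in young mouse 2, at 0 in the other young mice, and at 57.2 and 17.8 CPM in the old (4.29 ± 2.27). Thbs1, thrombospondin, was at 75.4, 15.6, 4.10 and 51.1 CPM in the young and 86.6 and 164 CPM in the old (1.75 ± 1.03). Treml1, a receptor of platelet granules, was at 0, 5.86, 4.10 and 0 CPM against 11.4 and 13.5 CPM (2.30 ± 2.01). These 3 are the separated members. Nfe2, a transcription factor of platelet formation, was at 262, 295, 326 and 239 CPM in the young and 267 and 212 CPM in the old, and Plek, a platelet kinase substrate, at 202, 83.9, 8.75 and 200.1 CPM against 168 and 187 CPM, both with overlap.

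Genes that define stem cell identity did not separate the ages. Of 27 transcription factors tested and of 25 surface and sorting markers, 0 passed and 0 were separated, and their medians were 0.13 and -0.13. Gata2, which keeps stem cells in being, was at 153, 139, 157 and 73.7 CPM in the young and 183 and 109 CPM in the old. Meis1, a Hox cofactor, was at 38.4, 139, 477 and 31.6 CPM against 351 and 53.3 CPM. Kit, the stem cell factor receptor, was at 317, 384, 1439 and 146 CPM against 679 and 210 CPM. Procr, the protein C receptor used to purify long-term cells, was at 0, 25.5, 148 and 0 CPM against 180 and 5.93 CPM. In Meis1, Kit and Procr alike, young mouse 3 and old mouse 2 were the highest and old mouse 4 was low, and the groups overlapped. Hlf at 39.0, 77.0, 221 and 7.37 CPM in the young and 199 and 11.9 CPM in the old, and Mecom at 50.7, 74.6, 149 and 22.6 CPM against 142 and 9.31 CPM, both regulators of long-term self-renewal, were likewise highest in young mouse 3 and old mouse 2.

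Among antigen presentation genes the ages were furthest apart, against their spread, in a class II gene. H2-Aa, the alpha chain of an MHC class II molecule, was at 41.3, 48.9, 53.03 and 81.1 CPM in young mice 1 to 4 and at 142 and 149 CPM in old mice 2 and 4. The means were 56.1 ± 17.4 CPM (SD, n = 4) and 146 ± 5.56 CPM (SD, n = 2), so the gap between the groups was wider than the spread within either. The edgeR difference was 1.34 ± 0.38 with an unadjusted p of 0.0025, and it did not pass (adjusted p = 1.00). It was 1.63 in the April set and 0.87 in the ztc set. In ST the old libraries, at 170 and 192 CPM, again lay above the young, at 57.8 to 114 CPM, and in MPP the groups overlapped. Cd74, the invariant chain that chaperones class II molecules, was at 270, 83.0, 37.5 and 127 CPM in the young and 179 and 294 CPM in the old (0.85 ± 0.61), with overlap. Of the 10 class II genes 8 had a positive difference, with a median of 0.68 and 1 separated (10%, beside 6.41% of all genes). Among 16 class I genes the median was 0.08, and 1 was separated with old higher (6.25%, beside 6.41%). This was Tap1, a subunit of the peptide transporter, at 191, 154, 212 and 108 CPM against 226 and 277 CPM (0.58 ± 0.30).

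B cells and dendritic cells also express class II genes, and the sums of their markers are given beside these values. The 20 B cell markers summed to 685, 595, 47.8 and 1327 CPM in the young and 542 and 2460 CPM in the old, and 11 dendritic cell markers to 448, 206, 142 and 243 CPM against 146 and 184 CPM. Most of the B cell sum of old mouse 4 was Igj, the joining chain of antibodies, at 2166 CPM, against 0, 181, 0 and 1063 CPM in the young and 384 CPM in old mouse 2. The part of such cells in the class II values was not tested.

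Ribosomal protein genes differed little between the ages, and the order depended on the young mouse. Of 83 tested, 61 differences were positive, with a median of 0.16, 8 were separated with old higher (9.64%, beside 6.41% of all genes), 0 with old lower and none passed. In both name sets 52 of the 83 were higher (62.7%, beside 29.3% of all genes) and 4 lower (4.82%, beside 19.3%). The old libraries lay above young mice 1 and 4 (medians of 0.73 and 0.53 for old mouse 2, and 0.63 and 0.39 for old mouse 4, in log2(CPM + 1)) and below young mouse 2 (-0.19 and -0.26), and against young mouse 3 the medians were 0.19 and 6.8e-05. The summed level was 62405, 115536, 96431 and 73588 CPM in the young and 111072 and 98375 CPM in the old, and the groups overlapped. Rpl8, a protein of the large subunit, was separated in LT, ST and MPP: in LT it was at 1190, 1679, 1441 and 1312 CPM in the young and 1868 and 1950 CPM in the old (0.42 ± 0.24). Rpl7a was at 559, 849, 785 and 809 CPM against 986 and 1285 CPM (0.57 ± 0.29), and Rplp0, a stalk protein, at 1810, 4346, 4246 and 3760 CPM against 5449 and 4806 CPM (0.50 ± 0.31). Ribosomal protein genes have many processed copies in the genome, and how reads of such copies were assigned is not known here.

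The integrated stress response and the unfolded protein response adjust translation, amino acid synthesis and protein folding in the endoplasmic reticulum. Of 20 genes of the 2 responses 17 had a positive difference, with a median of 0.54, and none passed. Atf3, a stress-induced transcription factor, was the separated one (5%, beside 6.41% of all genes), at 0, 0, 1.37 and 0 CPM in the young and 2.02 and 6.35 CPM in the old. Old mouse 4 lay above each young mouse by medians of 0.43 to 0.79, and old mouse 2 by -0.11 to 0.39, in log2(CPM + 1). Pdia4, a disulfide isomerase, was at 147, 198, 126 and 191 CPM in the young and 176 and 381 CPM in the old (0.73 ± 0.32), and the chaperone Hsp90b1 at 522, 512, 247 and 384 CPM against 482 and 914 CPM (0.73 ± 0.41). Both overlap through old mouse 2. Derl3 and Sel1l, which export misfolded proteins from this compartment for degradation, are no members of that list. Derl3 had 0 counts in all young LT and stood at 12.3 and 22.4 CPM in old mice 2 and 4, at least 136-fold above the limit set by 3 counts. Derl3 had the smallest edgeR p of all genes (1.2e-04, adjusted p = 0.803). DESeq2 called it (adjusted p = 5.2e-05), as did limma voom with mouse as a random effect (adjusted p = 0.043). In ST it was again at 0 in the young and at 7.24 and 47.5 CPM in the old, and in MPP at 2.74 to 4.98 CPM against 10.6 and 55.4 CPM. Sel1l was at 21.3, 117, 71.1 and 99.0 CPM in the young and 145 and 178 CPM in the old (1.03 ± 0.57), and was separated in all 3 cell types. Antibody-secreting cells carry much RNA of this compartment, and Igj was highest in the library in which Derl3 was highest, old mouse 4. Young mouse 4 held Igj at 1063 CPM with Derl3 at 0, and old mouse 2 held Igj at 384 CPM with Derl3 at 12.3 CPM. The part of such cells was not tested.

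**Figure D4:**
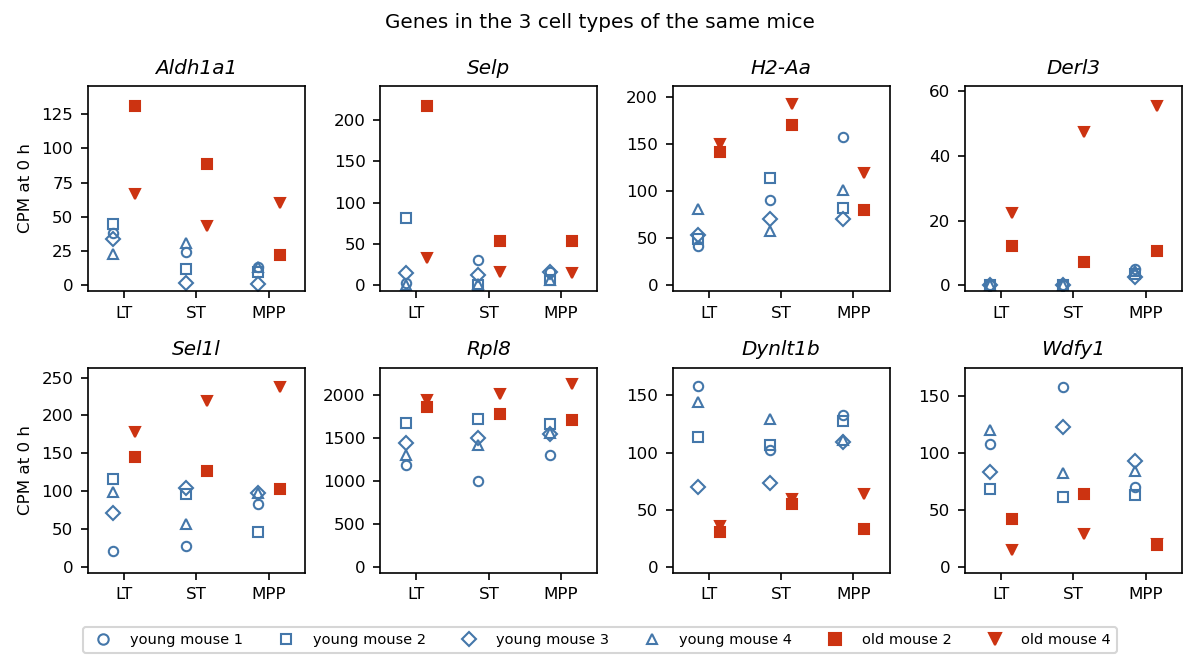
Levels in CPM of 8 genes in LT, ST and MPP at 0 h; open blue symbols are young mice 1 to 4 and filled red ones old mice 2 and 4. Old libraries lie above all young ones in the 3 cell types for Aldh1a1, Derl3, Sel1l and Rpl8 and below them for Dynlt1b, H2-Aa is separated in LT and ST, Wdfy1 in LT and MPP, and Selp overlaps in LT.

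Fewer genes were separated with old lower. Dynlt1b, a light chain of the motor dynein, was at 158, 113, 70.3 and 144 CPM in young mice 1 to 4 and 30.5 and 36.0 CPM in old mice 2 and 4. The means were 121 ± 38.9 CPM (SD, n = 4) and 33.2 ± 3.87 CPM (SD, n = 2), a difference of -1.90 ± 0.42 on the log2 scale. It did not pass with edgeR (unadjusted p = 2.6e-04, adjusted p = 1.00) and passed with DESeq2 (adjusted p = 0.0022). It was -2.11 in the April set and -1.97 in the ztc set, and old libraries were below all young ones in ST and MPP too. Dynlt1b has near-identical copies next to it in the mouse genome, so its counts depend on how shared reads were split. Wdfy1, which binds lipids of early endosomes, was at 108, 68.9, 83.4 and 120 CPM against 42.6 and 15.2 CPM (-1.75 ± 0.50) and was also separated in MPP, at 63.7 to 93.6 CPM against 19.5 and 20.4 CPM.

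Some separated genes of the signalling lists were lower in the old, and none passed. Nfkbia, which holds NF-kB in the cytoplasm, was at 228, 141, 145 and 184 CPM in the young and 128 and 52.9 CPM in the old (-0.98 ± 0.49). Dusp1, a phosphatase that shuts off MAP kinases, was at 69.1, 54.9, 67.8 and 115 CPM against 21.5 and 26.2 CPM (-1.72 ± 0.68), and Mdm2, which degrades p53, at 126, 60.0, 69.7 and 68.4 CPM against 45.3 and 31.3 CPM (-1.10 ± 0.48). Tnfaip3, another NF-kB inhibitor, was higher in the old, at 17.1, 6.72, 15.6 and 0 CPM against 36.8 and 36.0 CPM (1.88 ± 1.04). Of 24 NF-kB genes 3 were separated with old higher (12.5%, beside 6.41% of all genes) and 2 with old lower (8.33%, beside 2.15%). Their median was 0.04, with 14 positive. Of 20 p53 targets the median was -0.71 with 5 positive and 2 separated, both with old lower (10%, beside 2.15% of all genes). Of 27 immediate early genes it was -0.57 with 10 positive and 1 separated each way (3.70%, beside 6.41% higher and 2.15% lower of all genes). In log2(CPM + 1), the median of the p53 targets was -0.46 in the April set and 0.019 in the ztc set. That of the immediate early genes was -0.0022 in the April set and -0.79 in the ztc set. The part of the treatment label in all these values was not tested.

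For the receptors of the ligands used in the stimulated courses, 24 genes of Toll-like receptor signalling gave a median of -0.19. Separated higher were 3, Tlr6, Irak1 and Irak2 (12.5%, beside 6.41% of all genes). Separated lower was 1, Ly96, the LPS-binding partner of Tlr4 (4.17%, beside 2.15%). Irak2, a kinase below the receptors, was at 2.28, 10.7, 6.83 and 9.48 CPM in the young and 15.9 and 29.2 CPM in the old (1.59 ± 0.84). Tlr4, which senses LPS, was at 0, 47.3, 32.3 and 3.69 CPM in the young and 21.5 and 10.6 CPM in the old, and Tlr2, which senses Pam3csk4, at 22.9, 30.7, 36.4 and 55.8 CPM against 28.3 and 18.2 CPM. Tnf, an early product of this pathway, was at 0, 17.3, 2.19 and 58.4 CPM against 5.83 and 11.0 CPM. The groups overlapped for all 3. Of 3 transcription factors that act in blood and in inflammation, Klf5 was at 1.95, 4.08, 0 and 47.4 CPM in the young and 5.16 and 4.66 CPM in the old, Ikzf1 at 161, 117, 88.3 and 210 CPM against 89.5 and 252 CPM, and Stat3 at 303, 174, 300 and 251 CPM against 384 and 290 CPM. None of them separated the ages. Interferon-stimulated genes, which report a response to interferon, gave a median of -0.18 over 41 genes.

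Signalling and chromatin lists held few separated members each. Of 20 Wnt and Notch genes tested (median 0.22), 1 was separated higher (5%, beside 6.41% of all genes) and 2 lower (10%, beside 2.15%). Notch1, a receptor that favours lymphoid fate, was at 81.3, 70.0, 51.1 and 62.1 CPM in the young and 44.9 and 9.31 CPM in the old (-1.31 ± 0.66), and Ctnnb1, beta-catenin, at 120, 190, 49.5 and 84.8 CPM against 47.1 and 40.2 CPM (-1.37 ± 0.50). Lymphoid priming genes, 25 tested, had a median of -0.26, with 2 separated higher (8%, beside 6.41% of all genes) and 1 lower (4%, beside 2.15%). Among the higher ones was the transcription factor Foxp1 (45.0, 45.8, 105 and 93.2 CPM against 131 and 107 CPM). Rac1, a GTPase of stem cell homing, was at 438, 324, 94.0 and 348 CPM against 107 and 91.4 CPM (-1.63 ± 0.63), with old mouse 2 above young mouse 3. Niche adhesion and polarity genes, 25 tested, had a median of -0.13, with 2 separated higher (8%, beside 6.41% of all genes) and 0 lower (0%, beside 2.15%). Of 34 chromatin regulators 14 had a positive difference, with a median of -0.11. Of them 3 were separated with old higher (8.82%, beside 6.41% of all genes) and 1 with old lower (2.94%, beside 2.15%). The higher ones include the histone demethylase Kdm5b at 23.7, 50.7, 56.6 and 53.7 CPM against 80.6 and 90.2 CPM (0.86 ± 0.45) and the deacetylase Hdac3 at 59.0, 127, 92.9 and 76.9 CPM against 130 and 130 CPM (0.52 ± 0.48). Dnmt3a and Tet2, a DNA methyltransferase and a DNA demethylase often mutated in ageing blood, overlapped, at 60.1, 91.0, 88.3 and 31.6 CPM against 72.0 and 51.7 CPM, and 78.2, 16.0, 55.2 and 35.8 CPM against 67.5 and 54.2 CPM.

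In the defence against oxidants, Nfe2l2 (NRF2), its master regulator, was at 127, 125, 70.5 and 103 CPM in the young and 182 and 186 CPM in the old (0.76 ± 0.37), and Txnrd1, thioredoxin reductase and a known target of NRF2, went the other way, at 88.4, 43.0, 68.6 and 91.6 CPM against 29.8 and 34.7 CPM (-1.21 ± 0.60). The 21 genes of this list had a median of -0.08, with 3 separated higher (14.3%, beside 6.41% of all genes) and 1 lower (4.76%, beside 2.15%). Cell cycle genes did not separate the ages: the medians were -0.09 over 27 S phase, 0.03 over 32 G2 and M phase and -0.01 over 22 quiescence and G1 genes, with 1 separated gene in all. Mki67, a marker of cycling cells, was at 246, 215, 82.3 and 182 CPM in the young and 162 and 310 CPM in the old. Cdkn1a (p21), which arrests the cycle, was at 0, 8.67, 3.28 and 2.63 CPM against 2.69 and 4.66 CPM.

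Genes of mature and neighbouring cells varied between mice of 1 age as much as between ages. All 21 late neutrophil genes had a negative difference, with a median of -0.88, yet 0 were separated, and young mouse 3 lay below both old mice for 19 of them. In both the April and the ztc set 19 of the 21 were lower in the old (90.5%, beside 19.3% of all genes). The medians were -1.12 in the April set and -1.70 in the ztc set, in log2(CPM + 1). Each set holds 1 old mouse, so these values have no test. S100a8 was at 9095, 7544, 17.5 and 8524 CPM in the young and 2368 and 2273 CPM in the old. Mpo, the peroxidase of early granules, was at 5403, 3721, 3.01 and 5104 CPM against 2001 and 13123 CPM. Of 18 stromal and endothelial markers 12 were tested, with a median of -3.51, or -2.64 with genes at 0 in a group set to the 3-count limit. Their sum was 706, 1090, 384 and 26.9 CPM in the young and 214 and 51.2 CPM in the old, so the high values lay in young mice 1 to 3. Cxcl12, a chemokine of the niche, was at 369, 513, 32.3 and 4.21 CPM against 5.16 and 0 CPM. Stab2, a scavenger receptor of sinusoidal endothelium, was at 86.1, 223, 9.84 and 6.32 CPM in the young and at 0 in both old libraries. The 12 markers of mast cells, basophils and eosinophils summed to 819, 1248, 2.46 and 1828 CPM against 693 and 3857 CPM, with Prg2, an eosinophil granule protein, at 1190 CPM in old mouse 4.

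Xist, the RNA of the inactive X chromosome, was at 380, 461, 754 and 184 CPM in the young and 735 and 442 CPM in the old, and the Y-linked genes Ddx3y and Eif2s3y were at 0 in all 6 LT libraries. A difference in sex between the groups was therefore not seen in these libraries.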

How the data were processed

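Values are expected counts, which the authors estimated with RSEM against mm9 per the submitters' processing notes and deposited by gene symbol. There are 23366 symbols, and 89.1% of the values used are whole. The settings for strand and shared reads are not given in the sources used here. Of its columns 29 (all libraries at 0 h) were used and 98 were not. Libraries under 1000 counts were left out, repeats were summed per mouse and cell type, and sums were rounded. edgeR 4.0.16 (R 4.3.3) was fitted to 18 sums in 6 groups with TMM scaling, filterByExpr and a robust quasi-likelihood test on 12 residual degrees of freedom, with Benjamini-Hochberg adjustment over 12983 genes at 0.05. Alternatives used DESeq2 1.42.0 and limma 3.58.1. CPM are counts scaled to a common library total (1e6), and differences between single libraries are in log2(CPM + 1). A fold against a group at 0 uses a floor of 3 counts over the group.

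The list members and comparisons were chosen with earlier results of these data known. Genes were to be named if they passed with at least 10 CPM and no overlap, as up to 4 members of each of 43 lists (those that passed, then those of highest mean CPM), or from a fixed set, and as the 5 of lowest p that passed between cell types. None passed, and the text says which others were picked after their values were seen. Mice are numbered within each age. Nothing in the labels says how animals were matched. The main edgeR fit took the LT, ST and MPP sums of the same mouse as independent. Its p-values therefore do not measure the spread between these mice alone. Per-mouse totals of 1899170 to 11764630 counts set the counting error.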

Additional observations from a re-analysis of the deposited data

Results flagged for a closer look

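In a group of 4 libraries, a single one was marked where its gap to the nearest other over the whole range exceeded Dixon's 95% value. Of 102 values checked in the young LT libraries 16 were marked. Dixon's value assumes normally distributed values, which CPM need not be. A gene with counts in a single young library is always marked, as were Wwtr1, Tubb1, Hoxb5, Atf3, Epcam and Mx1. Genes picked after their values were seen were among those checked. The number of marks therefore cannot be set against a chance rate. The old group, with 2 libraries, could not be checked.

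Young mouse 3 stood apart for S100a8 (17.5 CPM, lower), Cd9 (133 CPM, lower), Hoxb5 (15.3 CPM, higher), Sfxn1 (141 CPM, higher), Atf3 (1.37 CPM, higher), Epcam (2.73 CPM, higher) and Mx1 (0.820 CPM, higher). Young mouse 4 stood apart for Igj (1063 CPM, higher), Klf5 (47.4 CPM, higher), Cd14 (35.3 CPM, higher), Wwtr1 (0.527 CPM, higher) and Ifnar1 (71.6 CPM, lower). Young mouse 2 was the high one for Selp (81.7 CPM) and Tubb1 (7.22 CPM), and young mouse 1 for Flt3 (137 CPM) and Mdm2 (126 CPM). The values of Wwtr1, Atf3 and Mx1 are a few counts in a single library with 0 in the other young mice.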

How the results depend on the processing

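No gene passed in LT under any edgeR setting tried or with limma voom and quality weights, while DESeq2 called 19 genes and voom with mouse as a random effect 4. Between LT and ST, DESeq2 called 27 genes and edgeR without old replicate 2 called 2, which gives a range of 0 to 2 over the mice left out. Between LT and MPP, DESeq2 called 3. The count of genes with old above all young was 832, from 1169 to 2515 with a mouse left out and 2061 without young mice 1 and 2, whose labels are the stimulated one (old mouse 2 was kept whole, since its repeats cannot be told apart by label). For old below all young it was 279, from 440 to 1262 and 1012. Fewer libraries are compared in these settings. For the aged list it was 9, from 9 to 30 with a mouse left out and 14 without young mice 1 and 2. The median of that list was 1.44, from -0.016 (without old mouse 2) to 2.26 with a mouse left out. For a separated gene, leaving out a mouse cannot turn the direction of the CPM difference. Of 897 single-gene values under 18 settings, 892 kept their direction, which for such genes was largely set by how they were picked. The 5 others are, without old mouse 2, Nupr1 (-0.081, up to 2.96 with another mouse left out), Sult1a1 (-0.31, up to 2.69), Tgm2 (-1.09, up to 1.31) and Enpp5 (-0.31, up to 2.48), and, without old mouse 4, Pdia4 (-0.017, up to 1.19). The cause was not tested.

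Old and young share the replicate numbers 2 and 4, which the labels do not tie to a litter or day. Deviations of same-numbered mice correlated at 0.037 and 0.221 across 12983 genes, and those of old mouse 2 and young mouse 3 at 0.320. With 2 old mice, the deviations of old mouse 2 mirror those of old mouse 4, so these values cannot show pairing. With the replicate block edgeR called 0 genes, with 858 at an unadjusted p under 0.05, and the aged list's median was 1.70. With the name set as a block, chosen after seeing the data, it was 1.96, with 0 genes called and 981 at an unadjusted p under 0.05. TMM-scaled CPM, also chosen later, gave 792 and 312 separated genes.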

Other observations

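Genes separated in LT, ST and MPP alike numbered 16 with old higher and 4 with old lower, and those named here were picked after their values were seen. Epcam, an epithelial adhesion molecule, was at 0, 0, 2.73 and 0 CPM in young LT and 17.9 and 25.4 CPM in old LT (edgeR log2 difference 4.98 ± 1.99, not passing). Trps1, a GATA-type repressor, was at 0, 3.15, 4.92 and 4.74 CPM against 19.5 and 27.1 CPM (2.84 ± 1.14). Sfxn1, a mitochondrial serine carrier, was at 92.8, 90.0, 141 and 90.0 CPM against 148 and 180 CPM (0.64 ± 0.27). On the lower side, Nod1, a sensor of bacterial peptidoglycan, was at 55.7, 62.0, 66.4 and 50.0 CPM against 33.7 and 42.3 CPM, and Limd2 at 535, 448, 423 and 660 CPM against 363 and 354 CPM. The cell types come from the same mice, so they do not replicate the age groups.

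Of 27 glycolysis and hypoxia genes, 4 were separated with old higher (14.8%, beside 6.41% of all genes) and 1 lower (3.70%, beside 2.15%). Their median was -0.010. Ldha, lactate dehydrogenase, was at 567, 985, 714 and 1019 CPM in young LT and 1138 and 1176 CPM in old LT, and Pfkp, a phosphofructokinase, at 29.1, 91.0, 98.4 and 63.7 CPM against 131 and 124 CPM. Of 21 T and NK cell markers 8 had a positive difference, with a median of -0.34. In both name sets 10 were lower (47.6%, beside 19.3% of all genes) and 3 higher (14.3%, beside 29.3%). Of the 21 markers 3 were separated with old higher (14.3%, beside 6.41% of all genes), among them Cd3g at 0 in the young and 2.92 and 11.9 CPM in the old. The summed level of that list was 298, 426, 96.0 and 388 CPM in the young and 252 and 491 CPM in the old, and the groups overlapped.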
